A study of Mus musculus with 2 samples.

Results

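Fibroblast growth factor (FGF) signalling was examined in an H3K27me3 map of mouse primary chondrocytes through 37 genes, namely 22 Fgf ligand genes, 5 receptor genes, the co-receptor genes Kl and Klb, and 8 genes for feedback inhibitors. A gene counted as marked when the deposited annotation joined at least 1 H3K27me3 peak to its symbol, that is, a peak within 5 kb of the gene record. Of the 37 genes, 18 were marked by that rule and 17 had a peak within 5 kb of their RefSeq position, because the peaks of Fgfr2 lay far from the gene. The 17 genes were joined to 45 of the 19359 peaks in the list, and the list named 4987 gene symbols in all.

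The cells were chondrocytes released with collagenase from rib cartilage of newborn CD1 mice, wild type and untreated, and cultured overnight in medium with serum. The libraries were DNA precipitated with an H3K27me3 antibody (ChIP) and input DNA, 1 library of each, so that no value below has a replicate check and no test between groups could be run. The libraries were taken by their titles, while the antibody tags of both say the opposite, the tag H3K27me3 standing with the input and the tag input with the ChIP library. The peak list was called from 17237574 filtered tags in its treatment library against 17004082 in its control. How many mice gave the cells was not given in the sources used here. Of 11 chondrocyte marker genes, Col2a1, Acan and Sox9 among them, 0 were marked (upper limit of the 95% Wilson interval 25.9%), against 3 of 4 skeletal muscle genes (Myod1, Myf5 and Pax7, but not Myog), 3 of 3 neuronal genes, 2 of 3 blood cell genes and 0 of 3 endothelial genes. Of all protein-coding genes 20.7% were marked, a share that the interval of the chondrocyte genes contains. A missing peak is no measure of expression.

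H3K27me3 is placed by PRC2 and is found at silenced genes, often those of developmental signals. Secreted FGFs bind receptor tyrosine kinases together with heparan sulphate, or with Klotho co-receptors in the case of the endocrine FGFs, and activate the ERK cascade. Sprouty and Spred proteins and the phosphatase Dusp6 damp this cascade. In the growth plate, Fgfr3 restrains chondrocyte proliferation, and Fgf9 and Fgf18 are known ligands of the developing skeleton.

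The mark lay on ligand genes and on both co-receptor genes, and at 1 of 8 feedback genes and no receptor gene by position. Of 22 ligand genes 14 were marked (63.6%, 95% Wilson interval 43.0 to 80.3%), and of the 2 co-receptor genes both were. Of 5 receptor genes, 1 was marked by the record and 0 by position (upper limit 43.4%). Of 8 feedback genes, 1 was marked (12.5%, 2.24 to 47.1%). Among all 21900 protein-coding genes listed by RefSeq, 20.7% were marked, so the ligand share stood above this background with its whole interval, while the intervals of receptor and feedback genes contained it. At RefSeq positions 17 of the 37 genes were marked (45.9%), beside 22.0% of protein-coding genes, with Spry3 counted as unmarked although its position is in doubt. The intervals cover counting error only, and the ligand interval overlapped those of both the receptor and the feedback genes.

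Longer genes were marked more often. Genes under 10 kb were marked in 1352 of 7938 cases (17%) and genes of 100 kb or more in 34.0%. Averaged over the length classes of the 22 ligand genes the background was 21%, and of the 11 ligand genes under 10 kb 9 were marked. Of the longer ligand genes, 1 of 2 was marked at 10 to 30 kb, 2 of 6 at 30 to 100 kb and 2 of 3 at 100 kb or more. The X chromosome carries 2 ligand genes, Fgf13 and Fgf16, which were both unmarked, and 5.90% of protein-coding genes on the X were marked against 21.7% on autosomes. Some ligand genes are neighbours. With genes within 200 kb counted as 1 locus, 11 of 19 ligand loci were marked (57.9%, 36.3 to 76.9%).

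**Figure D1:**
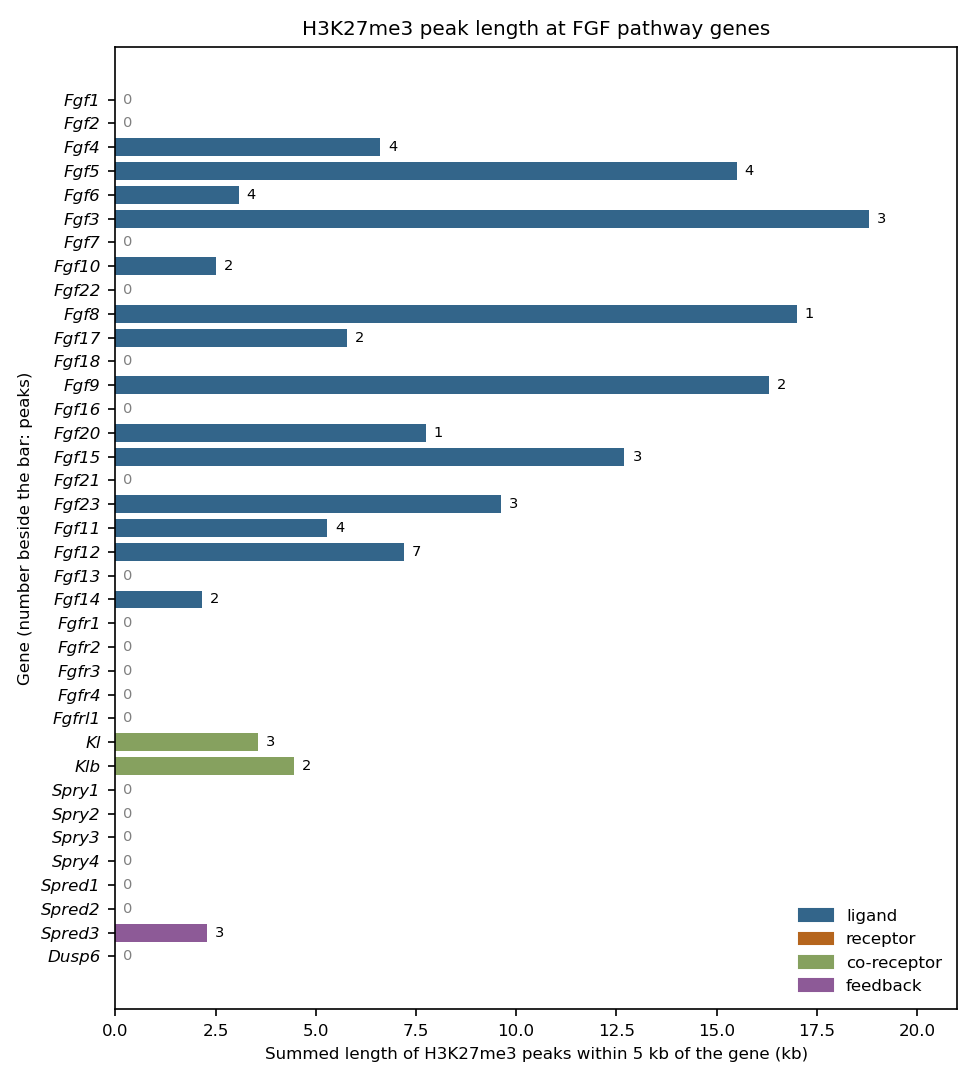
Summed length of the H3K27me3 peaks within 5 kb of the RefSeq position of each of the 37 genes (horizontal axis, kb), coloured by class, with the number of peaks beside each bar. Bars are seen for 14 ligand genes, both co-receptor genes and Spred3, up to 18.8 kb at Fgf3, and all 5 receptor genes stand at 0; the 0 of Spry3 could not be assessed by position.

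Promoters of 4 genes are printed because they stand for the positions that the peaks took at gene starts. They are RefSeq windows of GRCm38.p6, from 250 bases before to 50 after a start, read 5′ to 3′ along the gene, with CG dinucleotides in capitals. At Fgf4 peaks lay on both sides of the start, at Fgf14 a peak began 90 bp after a start inside the long gene, at Klb a peak covered the start, and Spry2 had no peak.
Fgf4, chr7:144861136-144861435, plus strand: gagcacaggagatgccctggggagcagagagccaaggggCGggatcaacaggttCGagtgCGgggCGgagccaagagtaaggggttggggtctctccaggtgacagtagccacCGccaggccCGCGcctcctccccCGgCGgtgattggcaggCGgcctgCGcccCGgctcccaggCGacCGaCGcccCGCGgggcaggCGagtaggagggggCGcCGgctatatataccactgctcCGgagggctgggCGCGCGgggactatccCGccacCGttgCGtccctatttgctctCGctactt
Fgf14, chr14:124192497-124192796, minus strand: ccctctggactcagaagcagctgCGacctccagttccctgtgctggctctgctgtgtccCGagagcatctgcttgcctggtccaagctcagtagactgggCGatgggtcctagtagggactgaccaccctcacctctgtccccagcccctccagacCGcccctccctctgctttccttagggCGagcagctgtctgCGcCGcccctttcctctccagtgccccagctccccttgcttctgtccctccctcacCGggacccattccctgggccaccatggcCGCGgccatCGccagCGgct
Klb, chr5:65348161-65348460, plus strand: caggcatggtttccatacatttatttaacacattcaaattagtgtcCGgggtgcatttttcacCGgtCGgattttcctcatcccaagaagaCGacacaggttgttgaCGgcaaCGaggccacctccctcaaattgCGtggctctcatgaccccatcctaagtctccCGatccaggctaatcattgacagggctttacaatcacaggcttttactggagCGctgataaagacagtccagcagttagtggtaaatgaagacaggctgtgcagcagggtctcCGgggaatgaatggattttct
Spry2, chr14:105896770-105897069, minus strand: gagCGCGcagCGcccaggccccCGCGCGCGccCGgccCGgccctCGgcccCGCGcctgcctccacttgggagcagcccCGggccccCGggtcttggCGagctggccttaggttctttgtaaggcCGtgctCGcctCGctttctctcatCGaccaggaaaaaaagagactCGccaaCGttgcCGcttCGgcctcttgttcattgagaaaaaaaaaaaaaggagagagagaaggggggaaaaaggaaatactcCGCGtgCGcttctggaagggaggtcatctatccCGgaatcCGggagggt
CG was counted 28 times in the Fgf4 window, 12 times at Fgf14, 10 times at Klb and 28 times at Spry2, so a window rich in CG occurred with and without peaks nearby.

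Among the paracrine ligands, the Fgf4 subfamily was marked in all 3 genes. Fgf4 (chromosome 7, 144861386 to 144865245), a signal of the early embryo and the limb bud ridge, had 4 peaks with a summed length of 6.61 kb. The widest, of 4.34 kb (144862775 to 144867111), lay over the 3′ part of the gene with a fold enrichment of 3.44, and the 1 with the highest enrichment (3.66-fold, q = 0.00565) lay 2.24 kb upstream of the start. The fold enrichment is the ratio of ChIP fragments to the input background over the peak, with 1 added to each, and q is the adjusted p-value of the enrichment, averaged over the peak by the caller.

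Fgf5 (chromosome 5, 98254184 to 98277033), known as a regulator of the hair cycle, had 4 peaks of 15.5 kb in all. A peak of 9.07 kb inside the gene (98254645 to 98263717) was enriched 3.35-fold (q = 0.0182). Fgf6 (chromosome 6, 127015542 to 127024718), a ligand of skeletal muscle, carried 4 narrow peaks of 0.299 to 1.30 kb inside the gene. The first of them, 0.369 kb wide and 614 bp after the start, had the highest fold enrichment at any of the 17 genes (3.73, q = 0.00465), whereas another had a q-value of 0.0988 at the weak end of the list.

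In the Fgf7 subfamily Fgf3 and Fgf10 were marked, and Fgf7 and Fgf22 were not. Fgf3 (chromosome 7, 144838612 to 144843348), which acts in inner ear formation, had the largest summed length of the 17 genes, 18.8 kb in 3 peaks, and 86.8% of the gene lay under them. Their fold enrichments were 3.44, 3.34 and 3.26, and none had a q-value at or under 0.01. Fgf10 (chromosome 13, 118714699 to 118792573), the mesenchymal signal that starts limb and lung buds, had a peak of 1.69 kb beginning 747 bp after the start (3.70-fold, q = 0.00512) and a weaker peak 5.06 kb after it (3.07-fold, q = 0.0639). The nearest peak was 55.9 kb from Fgf7, the keratinocyte growth factor, and 40.3 kb from Fgf22.

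In the Fgf8 subfamily the marked genes were Fgf8 and Fgf17. Fgf8 (chromosome 19, 45736491 to 45742941), a signal of the limb ridge and the midbrain border, lay entirely under 1 peak of 16973 bp (45729287 to 45746259), the widest peak at any of the 17 genes, at just under 3.5-fold (q = 0.00685). The same peak was joined to Mgea5 and Npm3, and Npm3 lies 4.79 kb from Fgf8. Fgf17 (chromosome 14, 70636203 to 70642268), related to it in sequence and active in the same brain region, had a peak of 4.67 kb over its start at 3.05-fold (q = 0.0433). That peak was also within 5 kb of Dmtn and Npm2, and the nearest gene to Fgf17, Dmtn, lies 155 bp away. Fgf18, a ligand of growing cartilage and bone, had no peak within 5 kb; the nearest was a peak of 11.9 kb at 21.5 kb.

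In the Fgf9 subfamily Fgf9 and Fgf20 were marked and Fgf16 was not. Fgf9 (chromosome 14, 58070671 to 58112854), which acts on early limb cartilage, had a peak of 14.1 kb over its start (58067132 to 58081229, 3.32-fold, q = 0.0197) and a peak of 2.18 kb inside the gene with a q-value of 0.0564. Fgf20 (chromosome 8, 40279166 to 40286953), a ligand of inner ear and kidney development, had 1 peak of 7.74 kb at 3.32-fold (q = 0.0216). The RefSeq start of Fgf20 lay under this peak, whereas the deposited record, which is longer, placed the peak inside the gene. Fgf1 and Fgf2, the broadly acting ligands without a classical signal peptide, had no peak within 246 kb, and the nearest to Fgf16 was 1560 kb away.

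Of the endocrine ligands, Fgf15 and Fgf23 were marked and Fgf21 was not. Fgf15 (chromosome 7, 144896532 to 144900953), the gut hormone that holds back bile acid synthesis, had 97% of its length under peaks. Its 5.93 kb peak over the start had the highest pileup (14.05 fragments) and the lowest q-value (0.00295) at the 17 genes, with a fold enrichment of 3.65. Fgf23 (chromosome 6, 127072902 to 127082296), the phosphate hormone of bone cells, had a peak of 5.96 kb from 1503 bp after the start (3.52-fold, q = 0.00870) and weaker peaks on either side. Both of its peaks inside and downstream were also within 5 kb of Tigar. From Fgf21, a fasting hormone of liver, the nearest peak was 11.6 kb away.

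The intracellular subfamily, whose proteins bind sodium channels and not FGF receptors, was marked in 3 of 4 genes. Fgf11 (chromosome 11, 69796068 to 69802944) had 4 peaks of 5.28 kb in all, and the 1 over its start was enriched 3.55-fold (q = 0.00655). All 4 were also within 5 kb of Chrnb1, which lies 102 bp from Fgf11. Peaks covered 50.9% of Fgf11, 2 of the 4 lying over the gene and 2 downstream of it. Fgf12 (595 kb) and Fgf14 (703 kb) are long genes, and peaks covered 1.21% and 0.306% of them. In Fgf14 (chromosome 14, 123974441 to 124677686) the peaks lay around the start whose promoter is printed above, 90 bp after it (1.17 kb, 3.17-fold, q = 0.0451) and 2.11 kb before it (0.979 kb, 3.10-fold, q = 0.0579).

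In Fgf12 (chromosome 16, 28157783 to 28753243) the deposited record ended within the gene as RefSeq places it, and it was joined to 2 peaks, 1.60 kb before and 2.50 kb after an inner start. Another 5 peaks lay over the rest of the gene without being joined to it, and 1 of these was 824 bp from another start. The q-values of the 7 peaks ran from 0.0359 to 0.0889, and both joined peaks were above 0.05. The nearest peak to Fgf13, on the X, was 1020 kb away.

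The marked ligand genes included 2 clusters. At Fgf3, Fgf4 and Fgf15 on chromosome 7, 11 peaks with a summed length of 38.9 kb lay within 5 kb of a span of 62.3 kb, of which 47.8% was covered. All but 1 of these 11 peaks were joined to 1 of the 3 ligand genes, and the other one had no gene. At Fgf6 and Fgf23 on chromosome 6, 10 peaks of 19.5 kb in all covered 27.7% of a span of 66.8 kb, and 3 of them, of 1.02 to 3.72 kb, lay between both genes with no gene joined. Genes of a cluster share neighbouring chromatin, and they are not independent counts.

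The co-receptor genes were both marked near their starts. Kl (chromosome 5, 150952607 to 150993817), the partner of receptors for Fgf23, had a peak of 1.25 kb beginning 532 bp after the start (3.69-fold, q = 0.00495), another 3.33 kb after it (3.31-fold) and 1 of 0.727 kb upstream (3.22-fold). Klb (chromosome 5, 65348411 to 65386957), the partner for Fgf15 and Fgf21, had a peak of 2.62 kb over the start at 3.18-fold (q = 0.0303). A second Klb peak inside the gene had a q-value of 0.0728.

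Receptor genes had no peak at their positions. The nearest peak was 31.2 kb from Fgfrl1, the receptor without a kinase domain, and 169 kb from Fgfr4. It was 177 kb from Fgfr3, the receptor of proliferating chondrocytes, 272 kb from Fgfr1 and 575 kb from Fgfr2.

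Fgfr2 was listed with 50 peaks of 116 kb in all, all of them far from the gene itself. The deposited record spanned 2.96 Mb on chromosome 7 (130162452 to 133123350), 28.4 times the 104 kb of the RefSeq gene (130162451 to 130266808), and it reached over 30 other protein-coding genes. None of the 50 peaks (0 of 50) lay within 5 kb of the RefSeq gene, and they stood 813 kb to 2.33 Mb from it. Another gene was joined to 18 of them, namely Dmbt1 to 6, 5430419D17Rik to 6, and Hmx2, Hmx3, Bub3, Nkx1-2 or Gpr26 to the rest. The widest of the 50 (16.1 kb, 131543744 to 131559865, 3.83-fold) covered Hmx2 and Hmx3, homeobox genes of ear and hypothalamus. These peaks were therefore left out of the descriptions of FGF genes.

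**Figure D2:**
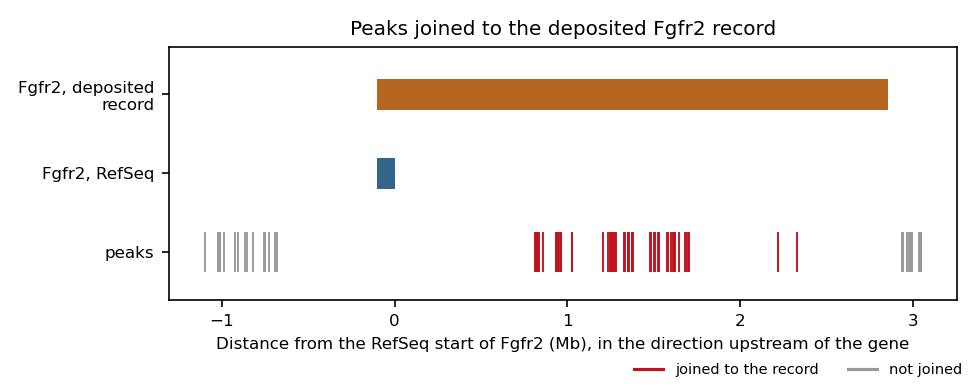
Peaks near Fgfr2 by distance from its RefSeq start (horizontal axis, Mb, rising in the direction upstream of the gene), with the RefSeq gene and the deposited record as bars. The 50 peaks joined to the record (red) all lie at 813 kb or more, beyond the gene.

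Among feedback genes only Spred3, a Spred family inhibitor of the ERK cascade, was marked, and its peaks were weak. The 3 peaks had widths of 0.681 to 0.824 kb, fold enrichments of 2.96 to 3.07 and q-values of 0.0629 to 0.0953, and each was also within 5 kb of Ggn, which overlaps Spred3. Where a mean q of 0.05 or less was required, 0 of 8 feedback genes were marked (upper limit 32.4%), beside 16.4% of all protein-coding genes, and 13 of 22 ligand genes. The nearest peak was 10.9 kb from Spry4, 11.8 kb from Spry1, 53.0 kb from Spred1, 194 kb from Dusp6, 393 kb from Spred2 and 635 kb from Spry2. No peak was joined to Spry3 by its symbol. Its position in the gene table (X, 101352 to 110912) comes before the first peak on any chromosome (3004692) and may be that of a separate scaffold, so whether a peak lies near Spry3 could not be assessed by position.

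No gene lay close to the limit of 5 kb. Every marked gene but Fgfr2 had a peak over its body, and the unmarked genes closest to the limit were Spry4, Fgf21 and Spry1 at 10.9 to 11.8 kb. Over the body of all protein-coding genes a peak was found in 14.2%.

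At gene starts the peaks of FGF genes were close but often did not cover the start. Where RefSeq gave several promoter windows for a gene, a start under a peak was preferred over a start flanked by peaks on both sides. The latter was preferred over the rest, and ties were settled by the distance to the nearest peak. The same choice was made for all protein-coding genes, and it favours covered and flanked starts. Of the 17 genes 7 had a RefSeq start under a peak (Fgf8, Fgf9, Fgf11, Fgf15, Fgf17, Fgf20 and Klb). A further 8 had peaks within 5 kb on both sides of a start with the start itself free (Fgf3, Fgf4, Fgf5, Fgf12, Fgf14, Fgf23, Kl and Spred3), and Fgf6 and Fgf10 had a peak on the downstream side alone. The gap over the free starts was 1.28 kb at Fgf5, 1.57 kb at Fgf3, 1.62 kb at Fgf4 and 2.20 kb at Fgf14, with a median of 2.47 kb and a largest value of 5.55 kb at Spred3.

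Peaks on both sides of a free start were found at 47.1% of the 17 FGF genes (26.2 to 69.0%) and a start under a peak at 41.2% (21.6 to 64.0%). Of 3507 marked protein-coding genes with a RefSeq start 17.2% had it (interval 16 to 18.5%), and a start under a peak was seen in 22.2%. Among genes with 2 or more peaks, 33.8% had it (31.6 to 36%), which lay within the interval of the 15 FGF genes with 2 or more peaks (53.3%, 30.1 to 75.2%). For Fgf8, Fgf15, Fgf17 and Fgf20 the start was taken from the end of the gene in the gene table, since no promoter window was matched, while the starts of the 3507 genes all come from promoter windows. With promoter windows alone, 3 of 13 FGF genes had a start under a peak (23.1%, 8.18 to 50.3%), and 8 of 13 had peaks on both sides (61.5%, 35.5 to 82.3%). All 13 had 2 or more peaks, and of all marked genes with 2 or more peaks 27.9% had a start under a peak, which lay within the first interval, and 33.8% had peaks on both sides, which lay below the second. By the deposited records 6 of the 37 genes had a peak over the 5′ end, beside 4.45% of protein-coding genes.

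**Figure D3:**
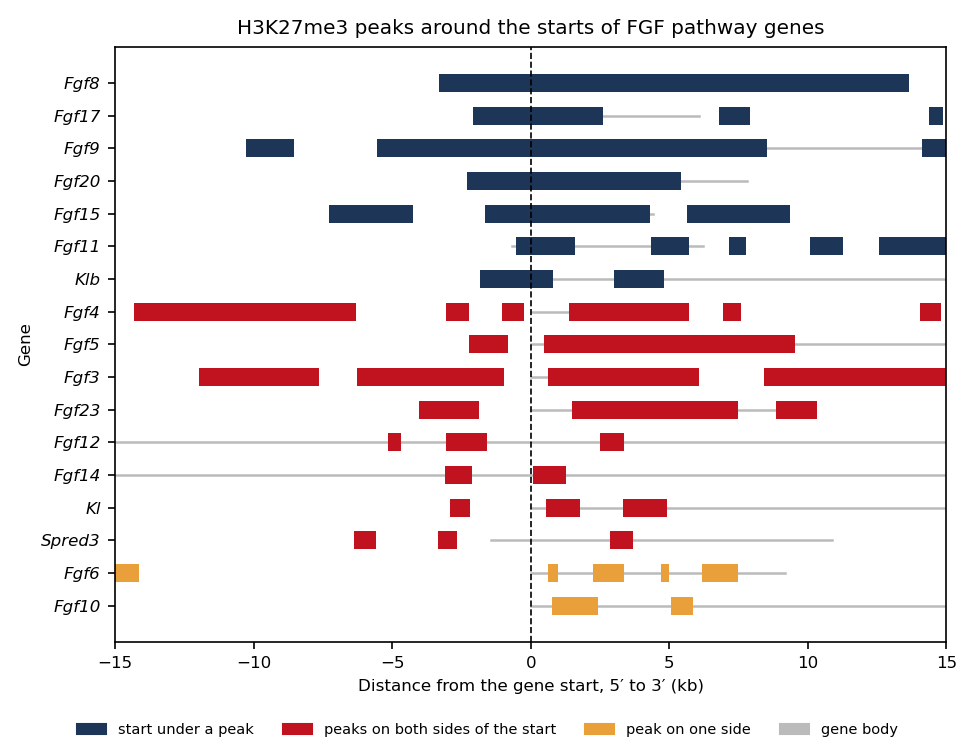
Peaks of the 17 genes by distance from a RefSeq start in the direction of transcription (horizontal axis, kb), with the gene body as a grey line. Peaks cover the start in 7 genes (blue), flank it in 8 (red) and lie on 1 side in 2 (orange); peaks of neighbouring genes in the window are drawn too.

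**Figure D4:**
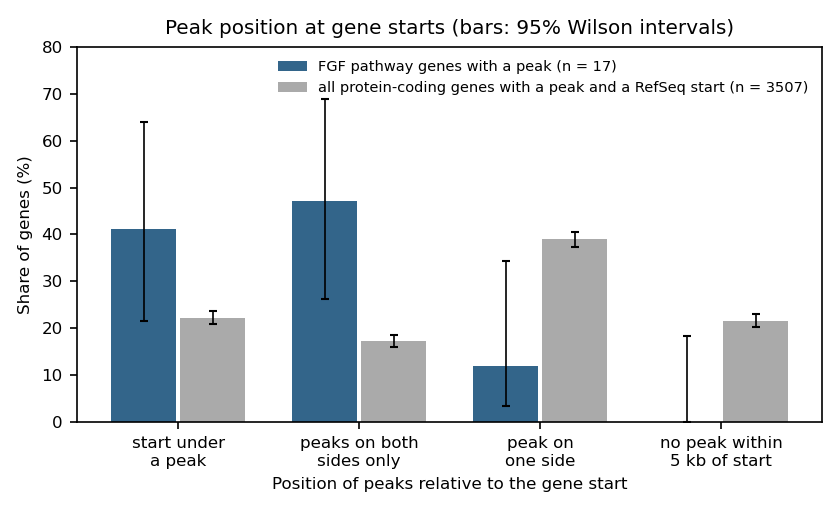
Share of genes (vertical axis, %) by the position of peaks relative to the start, for the 17 FGF pathway genes and for 3507 marked protein-coding genes, with 95% Wilson intervals as error bars. The bars for peaks on both sides stand at 47.1% and 17.2%; 4 of the 7 FGF genes with a start under a peak have no promoter window.

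Promoter windows of marked FGF genes held fewer CG than those of unmarked ones. Where a gene had several windows, the window counted was chosen by its peaks, as for the starts above. Among marked genes, it was not the window at the 5′ end of the gene for Fgf9, Fgf11, Fgf12, Fgf14 and Spred3. The 13 windows of marked genes held a median of 12 CG (range 5 to 29), and the 15 windows of genes without a peak at their position a median of 24 (range 4 to 47). The highest counts were 47 at Fgf18, 40 at Spred1 and 37 at Fgf13 and Fgfrl1, none of which was marked. Over all protein-coding genes the medians were 14.0 with a peak and 13.0 without. The 28 windows are few and the classes share families, so the medians are a description with no test.

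The word CCGGAA, a core of sites for ETS factors such as those that act downstream of FGF, was searched on both strands. It stood in 2 of the 13 windows of marked genes (Fgf5 and Fgf12) and in 3 of the 15 others (Fgfr4, Fgfrl1 and Spry2), beside 19% of all protein-coding promoters. TATAAA stood in 1 and 1 (Fgf5 and Fgf21), beside 13.4%.

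The strength of the FGF peaks was set beside that of the whole list. Over the 45 peaks the median fold enrichment was 3.25 (quartiles 3.07 and 3.44, range 2.86 to 3.73), against 3.16 over all peaks (3.03 and 3.33), and the median width was 1.45 kb against 1.27 kb. Of the 45, 30 (66.7%) reached a mean q of 0.05 or less and 9 reached 0.01 or less, against 60.8% and 11% of all peaks. A width of 10 kb or more was found in 2 of the 45, at Fgf8 and Fgf9, and in 670 of all 19359 peaks.

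**Figure D5:**
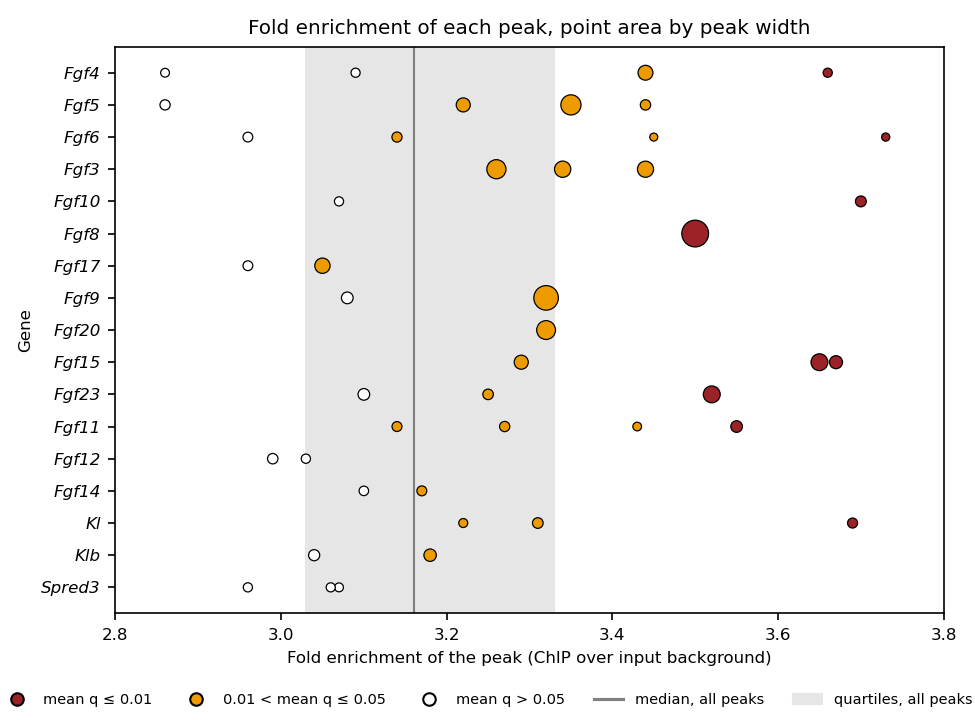
Fold enrichment (horizontal axis) of each of the 45 peaks by gene, with point area by peak width and colour by mean q-value; the grey line and band are the median (3.16) and quartiles of all 19359 peaks. The 9 peaks with a mean q of 0.01 or less lie at 8 genes, and Fgf12 and Spred3 hold open points only.

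The number of peaks and the length they covered are given with no test. The 17 genes had a median of 3 peaks and a median summed length of 5.78 kb, beside 2 peaks and 3.76 kb over all 4535 marked protein-coding genes. A single peak was found in 2 of the 17 (Fgf8 and Fgf20) and in 48.1% of all marked genes. Fgf3, Fgf8, Fgf9, Fgf5 and Fgf15 each had more summed length than at least 83.3% of all marked genes, while Fgf14, Spred3 and Fgf12 each had more than 34.2 to 35.9% of them. These lengths are of peaks joined to the deposited records, and for Fgf12 the record gave 2.30 kb where the RefSeq position gave 7.2 kb. With peaks of the same gene joined within 5 kb, and none joined between genes, the 45 peaks formed 20 domains.

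Where a mean q of 0.01 or less was required, 7 ligand genes kept a peak (Fgf4, Fgf6, Fgf8, Fgf10, Fgf11, Fgf15 and Fgf23; 31.8%, 16.4 to 52.7%) together with Kl, beside 5.90% of protein-coding genes. Of the 28 genes with a promoter window, 11 had a peak within 1 kb of a start (39.3%, 23.6 to 57.6%), and 9 of these were among the 16 ligand genes with a window, beside 9.20% of the protein-coding genes in that table. Fgf8, Fgf15, Fgf17 and Fgf20, which have no window, had a start under a peak by the gene table.

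Other genes of the FGF pathway, from a list of adaptors, kinases, targets and modulators, were looked up in the same way. Of 24 adaptor and kinase genes 1 was marked (4.17%, 0.739 to 20.2%), namely Ptpn11, by a peak 3711 bp upstream. Of 6 transcription factor and target genes 1 was marked (Etv4, by a peak of 1.45 kb that ended 915 bp from the gene), and of 18 other modulators 4 were (22.2%, 9 to 45.2%). In total 6 of 48 genes were marked (12.5%, 5.86 to 24.7%), an interval that contains the background of 20.7%.

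Among the modulators, Dusp4, a phosphatase of ERK, had a peak of 3.97 kb upstream (3.31-fold, q = 0.0198) and 1 of 3.51 kb inside the gene (3.17-fold, q = 0.0434), which was the only peak over the body of any of the 48 genes. Fgfbp1, a carrier that releases FGFs from the matrix, had 3 peaks of 6962 bp in all on both sides of the gene, the nearest 41 bp downstream of it (q = 0.0916). Fgfbp3 and Dusp9 each had a single peak of 0.294 kb, the smallest width in the list. None of the 6 genes had a peak with a q-value at or under 0.01.

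The input background, worked out from pileup and fold enrichment, was at most 3.53 fragments at the 45 peaks, with a median of 2.72, and 20 of them stood within a tolerance of 0.03 fragments of the genome-wide level of 2.67 (44.4%, against 36% of all peaks). The lowest pileup called anywhere was 9.86 fragments, and 2 of the 45 peaks, at Fgf6 and Fgf17, stood at that value. The signal outside called peaks was not analysed here, so a weaker mark at receptor or feedback genes was not assessed.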

How the data were processed

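H3K27me3 ChIP and input libraries (1 each) of mouse chondrocytes were compared. Per the submitters' processing notes, CASAVA 1.8.4, Bowtie2, MACS2 and the mm10 build were used. Per the file headers, the authors trimmed reads, removed duplicates and called broad peaks with MACS 2.1.0.20140616, ChIP against input, with a q-value cutoff of 0.05, a fragment length of 294 bp and the larger library scaled to the smaller. The deposited pileup is a coverage signal, the mean number of fragments over a peak. The deposited fold enrichment is a ratio of pileup to input background, each plus 1. The deposited p-values, not used here, and q-values are −log10 means over a peak. Mean q-values reached 0.0991, above the stated cutoff, and a separate cutoff for broad regions is not given in the header. The authors joined peaks to gene records within 5 kb, with a tool that is not given in the sources used here.

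All 19359 peaks had exactly equal start, end, pileup, fold enrichment and q-value in both tables. Of 4987 deposited symbols, 98.8% matched the RefSeq gene table of GRCm38.p6 by symbol or synonym. All 37 members did, and 28 of them have a promoter window. Overlaps were computed in Python 3.11.15 with pandas 2.3.3, and Wilson intervals with scipy 1.17.1. The assignment of peaks was tested on simulated data. The 37 genes are all named; other pathway genes are named where the summed peak length was at least 5 kb or the gene start lay under a peak, and Ptpn11, Etv4, Fgfbp3 and Dusp9 were added after their values were seen. Members, lists and thresholds were chosen with earlier results of these data known. Alternatives covered peak thresholds, peak width, overlap rules and gene positions.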

Additional observations from a re-analysis of the deposited data

How the results depend on the processing

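No paired analysis was possible because only 1 library stood in each group. Of 83 recomputed values over 11 results, 44 stayed within the limits set (1.5 times for counts, 10% for lengths and medians) and 39 moved. The distance of 1 kb from a start, the source of starts, the count by locus and the removal of Fgfr2 were chosen after seeing the data. Where no cause is given, the cause was not tested.

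Fewer peaks or a narrower rule must give fewer genes. Requiring a mean q of 0.01 or less left 9 members, 7 ligand genes, 0 feedback genes, 0 other pathway genes and 1292 protein-coding genes, a fold enrichment of at least 3.5 left 8, 6 (without Fgf8, just under it), 0, 0 and 1171, and cover of the 5′ end by the deposited record left 6, 5, 0, 0 and 975 and 1 of the receptor and co-receptor genes. A peak within 1 kb of a RefSeq start was found at 11, 9, 0, 1 and 1610, but genes without a promoter window count as unmarked there, and with starts from the gene table added for Fgf8, Fgf15, Fgf17 and Fgf20 it was found at 15 members and 13 ligand genes. Feedback genes also went to 0 at a mean q of 0.05 or less and at a width of at least 1 kb, and to 3 with a reach of 20 kb (Spry1, Spry4 and Spred3), where 7211 protein-coding genes were marked. A peak over the gene body left 1 other pathway gene, as did an overlap of at least 500 bp, which gave 2852 protein-coding genes. The 14 ligand genes stayed at 13 to 15 under the other alternatives and at 11 by locus.

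The summed peak length of members, 251 kb with Fgfr2, was 221 kb at a mean q of 0.05 or less, 94.8 kb at 0.01, 61.5 kb at a fold enrichment of at least 3.5, 141 kb by RefSeq position and 136 kb without Fgfr2. The median fold enrichment, 3.21 over all 95 peaks, was 3.65 at a mean q of 0.01 or less and 3.66 at a fold enrichment of at least 3.5, which selects on it. The 95 peaks became 46 when those of the same gene were joined within 5 kb, and 45 unjoined peaks remained without Fgfr2. The median CG count of unmarked members, 25 with Fgfr2 taken as marked, was 20 at a mean q of 0.01 or less and 19 by cover of the 5′ end, as marked genes entered that group. Most of these held fewer than 25 CG, but Fgf5 held 29 and, by cover of the 5′ end, Fgf4 entered with 28. With starts from promoter windows alone, the share of marked members with a start under a peak was 23.1% in place of 41.2%. The effect of depth was not tested, and the lowest pileup called was 9.86 fragments.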

Other observations

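The free start between flanking peaks, seen at 8 FGF genes, was counted over the genome by the CG content of the promoter window. Among protein-coding genes with a peak within 5 kb of a RefSeq start, the start lay under a peak in 30.6% (27.8 to 33.5%) of the 1000 genes with under 10 CG in the promoter window, in 33.9% (30.7 to 37.2%) at 10 to 19 CG, in 24.9% (21.8 to 28.3%) at 20 to 29 CG and in 16.9% (13.6 to 20.6%) of the 439 genes with 30 or more. Peaks on both sides of a free start were found in 18.3%, 18.4%, 21.8% and 36.7% of the same classes. The narrowest of 604 such gaps at marked genes was 1.18 kb and the median 2.21 kb. Whether the peak caller joined regions across narrower gaps, which would count a start as under a peak, was not tested. The windows of Fgf4, Fgf5 and Fgf12, which lie in such gaps, held 28, 29 and 22 CG, and those of Fgf3, Fgf14, Fgf23, Kl and Spred3 held 14, 12, 6, 19 and 8. Local read depth at the starts was not used here, and its part in the pattern was not tested.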
